A study of Mus musculus with 9 samples.

Results

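The genes described here are the semaphorins, plexins, neuropilins, ephrins and Eph receptors, the cell-surface and secreted cues that steer growing axons, vessels and migrating cells. They were taken by symbol from a table of 84809 gene rows. The pattern matched 54 rows with 53 symbols: 20 semaphorins, 2 neuropilins, 9 plexins, 8 ephrins, 9 EphA receptors (10 rows, since Epha5 had 2) and 5 EphB receptors. Expression had been measured by RNA sequencing in cells of the dermis of newborn mice labelled Krt14 cre;Rosa26-mTmG, a keratin 14 promoter driving Cre recombinase together with a membrane reporter that changes colour after Cre, and all 3 gates came from this strain. The cells were primary, not cultured, and were separated by FACS for surface CD49f, the α6 chain of integrins, into CD49f-neg, CD49f-low and CD49f-high mesenchymal gates, with 3 libraries each. The labels give neither the number of mice nor whether replicates came from separate animals, so the p-values measure only the spread between these samples, which may be technical.

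Semaphorins signal through plexins, whose cytoplasmic part acts on small GTPases, and the secreted class 3 semaphorins mostly need a neuropilin as the ligand-binding partner. Ephrins are bound to the membrane, the A class by a lipid anchor and the B class by a transmembrane stretch, and they signal both into the cell that carries the Eph receptor tyrosine kinase and back into their own cell. In skin both systems are known for guiding sensory and sympathetic nerves, vessels and neural crest derived cells, among them melanocyte precursors and Schwann cells.

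Levels are FPKM, fragments scaled by transcript length and by library size, as mean ± SD with n = 3 per gate. At the estimated depth, 1 FPKM over 1 kilobase stood for 23.7 to 27.3 fragments per library. Differences are log2 fold changes of FPKM + 1, which understate the change of genes with low FPKM. A row was tested when it had at least 1 FPKM in at least 3 libraries, and a difference was called when limma's p-value, adjusted by Benjamini-Hochberg over all 20523 rows tested, was under 0.05. Itga6, which encodes CD49f, stood at 0.475 ± 0.216 FPKM in the CD49f-neg libraries, 5.51 ± 0.979 in those of CD49f-low and 19.9 ± 4.11 in those of CD49f-high, the order of the gates.

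The gates held different marker genes, and this bears on every level below, because in bulk samples fewer cells of a type and less RNA per cell cannot be told apart. Fibroblast markers led in all gates, and their 12 genes summed to 14300.3 to 17286 FPKM in the CD49f-neg libraries, 5789.9 to 7025 in those of CD49f-low and 4112 to 6159 in those of CD49f-high. Melanocyte markers summed to 6.18 to 6.33, 463 to 569 and 25.8 to 43.4 FPKM in the same order, with 12 of 12 called higher in CD49f-low than CD49f-neg, and dermal papilla markers to 112 to 139, 232 to 267 and 35.6 to 52.1, with 9 of 12. Gpr143, a melanosome receptor, was listed at 0 in the 3 CD49f-neg libraries. Pericyte and smooth muscle markers summed to 54.3 to 66.5, 109.7 to 194 and 863 to 1552 FPKM, with 12 of 12 called higher in CD49f-high than CD49f-neg. Schwann cell markers summed to 2.29 to 4.80, 46.7 to 64.5 and 58.2 to 303 FPKM, with 11 of 11 tested called higher in CD49f-high than CD49f-neg. Blood endothelial markers summed to 16.6 to 18.9, 20.5 to 21.3 and 37.0 to 54.0 FPKM (4 of 8 tested called higher and 1 lower in CD49f-high than CD49f-neg), lymphatic endothelial markers to 12.7 to 18.5, 11.8 to 16.0 and 26.6 to 43.0 (5 of 6 tested higher and 1 lower), and keratinocyte markers to 4.06 to 4.89, 12.5 to 22.0 and 34.1 to 73.5 (10 of 10 tested higher). Skeletal muscle markers summed to 1.67 to 2.66, 15.5 to 23.3 and 29.7 to 57.4 FPKM, though of 5 tested, 4 were called lower and 1 higher in CD49f-high than CD49f-low. The 10 immune markers summed to 1.65 to 4.16 FPKM across libraries, with 9 of 10 below 1 FPKM everywhere. The part of these cell types in the results on guidance genes was not tested. CD49f-high replicate 1 stood apart in some lists: its Schwann cell markers summed to 58.2 FPKM against 247 and 303 in replicates 2 and 3, and its adipocyte markers to 317 against 46.9 and 36.2.

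Guidance genes differed widely between the gates. Of the 54 rows, 45 were tested, and 35 of these were called in at least 1 of the 3 contrasts, against 32.5% of all rows tested. Of the called members, 17 had their highest mean in CD49f-high, 9 in CD49f-low and 9 in CD49f-neg. CD49f-high against CD49f-neg gave 30 calls (66.7% of the members, against 22.1% of all rows), 18 higher and 12 lower, where 13.9% of all rows were higher and 8.27% lower. CD49f-high against CD49f-low gave 25 calls (55.6%, against 16.4% of all rows), 13 higher and 12 lower, where 5.93% of all rows were higher and 10.5% lower. CD49f-low against CD49f-neg gave 17 calls (37.8%, against 15.4% of all rows), 13 higher and 4 lower, where 12.8% of all rows were higher and 2.62% lower. The F test over the gates called 32 members (71.1%, against 28.5% of all rows). The contrasts share libraries, so their counts are not independent. In addition, 3 members (Sema4a, Plxnb3 and Ephb1) reached 1 FPKM only in the gate where they were high, which favours a difference. Sema5b and Sema4g also needed the gate where they were high to pass the filter. Outside CD49f-high, Sema5b reached 1 FPKM only in CD49f-low replicates 2 and 3 (1.59 and 2.23). Outside CD49f-low, Sema4g did so only in CD49f-high replicate 2 (1.15). Without Sema4a, Plxnb3 and Ephb1, the calls were 27 of 42, 22 of 42 and 16 of 42 in CD49f-high against CD49f-neg, CD49f-high against CD49f-low and CD49f-low against CD49f-neg. Sema5b and Sema4g are still among these 42.

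The split of calls from CD49f-neg to CD49f-low moved with the scaling. The median of all rows lay at 0.21 on the log2 scale in this contrast and at 0.01 after median-of-ratios scaling. That scaling also gave 17 calls, 13 of them shared, with 9 higher and 8 lower, while 10.8% of all rows were called. Quantile normalization gave 8 higher and 5 lower, with 9.96% of all rows called. The members' median was 0.37 in CD49f-low against CD49f-neg, 0.21 in CD49f-high against CD49f-neg (all rows 0.07) and -0.10 in CD49f-high against CD49f-low (all rows -0.15). With the replicate number as a block, the calls were 24, 33 and 30 in CD49f-low against CD49f-neg, CD49f-high against CD49f-neg and CD49f-high against CD49f-low, while the share of all rows called rose as well, to 28.3%, 31.2% and 25.9%.

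**Figure D1:**
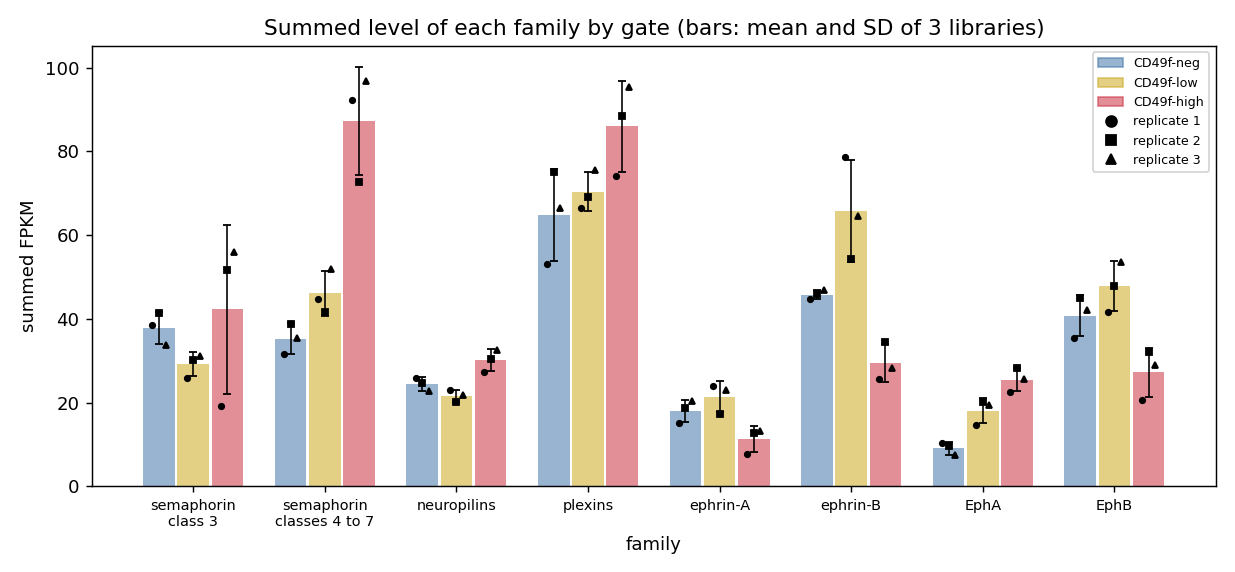
Summed FPKM (vertical axis) of 8 families by gate, with bars for the mean of 3 libraries, error bars for the SD and a symbol for each replicate. Semaphorins of classes 4 to 7 stand at 72.6 to 96.9 FPKM in CD49f-high against 31.6 to 52.0 elsewhere, ephrin-B sums are lowest there (25.6 to 34.5), and in CD49f-high the EphA sum is at its highest (22.6 to 28.2) and the EphB sum at its lowest (20.6 to 32.2).

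Summed over genes, the ligand families differed in opposite directions in CD49f-high. Semaphorins summed to 73.1 ± 6.15 FPKM in the CD49f-neg libraries, 75.3 ± 6.86 in those of CD49f-low and 129.6 ± 21.3 in those of CD49f-high, while ephrins summed to 63.9 ± 3.67, 87.3 ± 15.5 and 40.8 ± 6.98. In both families the CD49f-high libraries did not overlap with those of the other gates. Within the semaphorins it was the membrane-bound classes 4 to 7 that set this order, with 35.3 ± 3.64, 46.1 ± 5.32 and 87.3 ± 12.9 FPKM, whereas class 3 stood at 37.9 ± 3.81, 29.2 ± 2.81 and 42.3 ± 20.2. Neuropilins and plexins together summed to 89.3 ± 10.2, 92.0 ± 4.59 and 116 ± 13.4 FPKM. Eph receptors as a whole had closer sums, 50.0 ± 4.51, 65.8 ± 8.65 and 52.7 ± 8.72 FPKM, and their classes parted between CD49f-low and CD49f-high: EphA summed to 9.13 ± 1.53, 18.1 ± 3.05 and 25.5 ± 2.80, and EphB to 40.8 ± 4.87, 47.8 ± 5.98 and 27.2 ± 5.95. Sums over chosen members carry no test.

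Class 3 semaphorins, the secreted members, were divided among the gates: of 6 tested, 3 were called lower in CD49f-high than CD49f-neg (Sema3a, Sema3d, Sema3f; all rows 8.27%) and 1 higher (Sema3g; all rows 13.9%). Sema3a, the classical axon repellent that acts through Nrp1 (GRCm38 chromosome 5, 13125414 to 13602565), was measured at 2.86, 2.94 and 2.73 FPKM in the CD49f-neg libraries, 6.61, 3.49 and 6.12 in those of CD49f-low and 1.13, 1.30 and 1.04 in those of CD49f-high. It was highest in CD49f-low and lowest in CD49f-high, with no overlap between gates. Its difference from CD49f-low to CD49f-high was -1.54 ± 0.18 (SE, adjusted p = 0.000492). Its rise from CD49f-neg to CD49f-low, 0.70 ± 0.18 (adjusted p = 0.0335), was lost under median-of-ratios scaling (adjusted p = 0.145), without CD49f-neg replicate 1, 2 or 3 (0.0625, 0.0745 and 0.103) and without CD49f-low replicate 1 or 3 (0.0989 and 0.119).

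Sema3d and Sema3f were highest in CD49f-neg. Sema3d, a regulator of endothelial and neural crest cells, went from 4.95 ± 0.951 FPKM in CD49f-neg to 2.57 ± 0.125 in CD49f-low and 1.33 ± 0.322 in CD49f-high, and was the only member called lower at both steps (-0.73 ± 0.15, adjusted p = 0.0116, and -0.62 ± 0.15, adjusted p = 0.0193). The second step was lost under median-of-ratios scaling (adjusted p = 0.0511), without any one of CD49f-low replicates 1, 2 and 3 (adjusted p = 0.0646, 0.0561 and 0.056) and without CD49f-high replicate 1 (0.0527). Sema3f, which repels axons through Nrp2, stood at 9.63, 13.1 and 11.7 FPKM in the CD49f-neg libraries, 5.33, 5.26 and 6.58 in those of CD49f-low and 4.79, 3.21 and 4.15 in those of CD49f-high. Every CD49f-neg library lay above every other library, and all CD49f-low libraries lay above those of CD49f-high. Its difference from CD49f-neg was -0.89 ± 0.16 in CD49f-low (adjusted p = 0.00517) and -1.31 ± 0.16 in CD49f-high (adjusted p = 0.000297). From CD49f-low to CD49f-high, -0.42 ± 0.16 was not called (adjusted p = 0.104).

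Sema3b, Sema3c and Sema3g carried the wide spread of class 3 in CD49f-high. Sema3g, which binds Nrp2 and is known from arterial endothelium, was measured at 0.911, 2.99 and 3.03 FPKM in the CD49f-neg libraries, 3.40, 5.98 and 7.24 in those of CD49f-low and 3.25, 15.9 and 19.0 in those of CD49f-high. Replicates 2 and 3 of CD49f-high were the highest libraries, but its replicate 1 lay below all CD49f-low libraries. The call in CD49f-high against CD49f-neg, 1.85 ± 0.55 (adjusted p = 0.0394), was lost without any one of CD49f-neg replicates 1, 2 and 3 (0.111, 0.0678 and 0.0678), CD49f-low replicates 2 and 3 (0.0575 and 0.0533) and CD49f-high replicates 2 and 3 (0.122 in both). Without CD49f-high replicate 1 it was 2.55 (adjusted p = 0.00154), and the difference from CD49f-low became a call at 1.54 (adjusted p = 0.0234). With the replicate block the rise from CD49f-neg to CD49f-low was called too (adjusted p = 0.0266).

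Sema3b (5.20 ± 0.702, 3.32 ± 0.433 and 9.07 ± 5.65 FPKM in CD49f-neg, CD49f-low and CD49f-high) and Sema3c (10.9 ± 2.73, 6.38 ± 2.30 and 12.4 ± 5.75), a ligand for vascular and cardiac neural crest cells, were called in no contrast. Sema3b was at 2.56 FPKM in CD49f-high replicate 1 and at 12.6 and 12.1 in the others, and Sema3c at 5.72 against 15.4 and 16.0. Without that library Sema3b was called higher in CD49f-high than CD49f-neg (1.11, adjusted p = 0.000766) and CD49f-low (1.63, adjusted p = 0.000195) and lower in CD49f-low than CD49f-neg (-0.52, adjusted p = 0.0239). Sema3c was then called higher in CD49f-high than CD49f-low (1.22, adjusted p = 0.0161). Sema3e, which binds Plxnd1 without a neuropilin, did not pass the filter and stood at 0.173, 0.212 and 1.61 ± 0.880 FPKM; fitted without a filter it was called higher in CD49f-high than CD49f-neg (1.10, adjusted p = 0.0246) and CD49f-low (1.05, adjusted p = 0.0384).

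**Figure D2:**
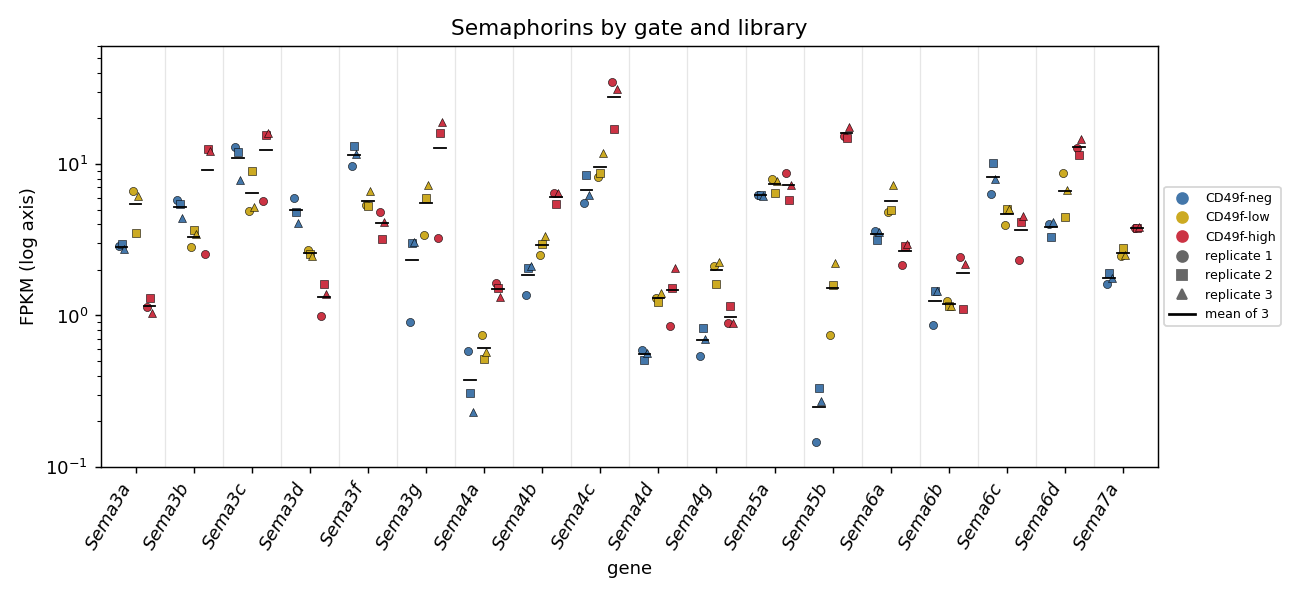
FPKM of each tested semaphorin in the 9 libraries on a log axis, colours for gates, symbols for replicates and lines for gate means. Sema5b separates the 3 gates most widely, from 0.146 to 0.334 FPKM in CD49f-neg to 14.9 to 17.6 in CD49f-high, and Sema3b, Sema3c and Sema3g show 1 low library in CD49f-high.

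The membrane-bound semaphorins rose mostly in CD49f-high: of 12 tested, 7 were called higher and 1 lower than CD49f-neg, against 13.9% and 8.27% of all rows. The 7 include Sema4a and Sema5b, which would not have passed the filter without this gate. Sema5b, a transmembrane member with thrombospondin repeats (GRCm38 chromosome 16, 35541145 to 35664732), had the largest difference of all tested semaphorins. It was measured at 0.146, 0.334 and 0.272 FPKM in the CD49f-neg libraries, 0.747, 1.59 and 2.23 in those of CD49f-low and 15.2, 14.9 and 17.6 in those of CD49f-high. The gates formed 3 separate steps. CD49f-high exceeded CD49f-neg by 3.75 ± 0.20 and CD49f-low by 2.79 ± 0.20. These are given as a description, because Sema5b would not have passed the filter without the CD49f-high libraries. The step from CD49f-neg to CD49f-low was 0.97 ± 0.20 (adjusted p = 0.0126). With a pseudocount of 0.1 that step was 2.13, and it was lost under quantile normalization (adjusted p = 0.112) and without CD49f-low replicate 2 (adjusted p = 0.0501).

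Class 4 members followed in CD49f-high. Sema4c, a ligand of Plxnb2, stood at 5.50, 8.48 and 6.25 FPKM in the CD49f-neg libraries, 8.17, 8.73 and 11.8 in those of CD49f-low and 34.7, 17.0 and 31.0 in those of CD49f-high. The CD49f-high libraries lay above all others, while CD49f-neg and CD49f-low overlapped. Its rise was 1.84 ± 0.26 over CD49f-neg (adjusted p = 0.000795) and 1.39 ± 0.26 over CD49f-low (adjusted p = 0.00558), the latter with an adjusted p of 0.059 when replicate 1 of all 3 gates was left out, an alternative chosen after seeing the data. Exons of D430040D24Rik overlap it on the other strand.

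Sema4b was at 1.36, 2.07 and 2.12 FPKM in the CD49f-neg libraries, 2.49, 2.95 and 3.32 in those of CD49f-low and 6.42, 5.40 and 6.38 in those of CD49f-high. Its gates formed 3 steps with no overlap. CD49f-high was higher than CD49f-neg by 1.32 ± 0.14 (adjusted p = 0.00018) and than CD49f-low by 0.85 ± 0.14 (adjusted p = 0.00339). The step to CD49f-low was called only with the replicate block (adjusted p = 0.0298 against 0.0581 without it).

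Lower in level were Sema4a, Sema4d and Sema4g. Sema4a, an immune and vascular semaphorin, had 0.374 ± 0.185, 0.609 ± 0.118 and 1.50 ± 0.159 FPKM in CD49f-neg, CD49f-low and CD49f-high, a difference in CD49f-high of 0.87 against CD49f-neg (1.82 with a pseudocount of 0.1) and 0.63 against CD49f-low (1.18 with a pseudocount of 0.1). These are given as a description, since it passed the filter only through CD49f-high. Its row also covers the microRNA gene Mir7011. Sema4d, the ligand of Plxnb1, had 0.556 ± 0.0417, 1.31 ± 0.0909 and 1.48 ± 0.606 FPKM, with CD49f-high above CD49f-neg by 0.64 (adjusted p = 0.0249; 1.19 with a pseudocount of 0.1). That call was lost without any one of CD49f-neg replicates 2 and 3 (0.0749 and 0.0685) and CD49f-high replicates 2 and 3 (0.0704 and 0.0725). The difference of Sema4d in CD49f-low against CD49f-neg (0.57, adjusted p = 0.0532) was called with the replicate block (0.0332) and without CD49f-high replicate 1 or 3 (0.014 and 0.0308). Sema4g peaked in CD49f-low, at 0.690 ± 0.142, 1.99 ± 0.331 and 0.978 ± 0.147 FPKM, 0.82 above CD49f-neg (1.41 with a pseudocount of 0.1). Its difference from CD49f-low to CD49f-high was -0.59. Both are a description, since Sema4g would not have passed the filter without the CD49f-low libraries. From CD49f-low to CD49f-high the difference was -0.56 and -0.53 without CD49f-low replicate 1 or 3, and -0.56 without CD49f-high replicate 3. It was called in none of these fits.

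Class 6 members, which bind A-type plexins, took 3 different orders. Sema6d was measured at 4.03, 3.31 and 4.14 FPKM in the CD49f-neg libraries, 8.76, 4.48 and 6.70 in those of CD49f-low and 12.8, 11.5 and 14.7 in those of CD49f-high. It rose from gate to gate with no overlap, and was 1.54 ± 0.20 higher in CD49f-high than CD49f-neg (adjusted p = 0.000458) and 0.91 ± 0.20 higher than CD49f-low (adjusted p = 0.0121). Its difference in CD49f-low against CD49f-neg (0.63, adjusted p = 0.0594) was called with the replicate block (0.0169) and without CD49f-low replicate 2 (0.0145).

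Sema6c ran the other way, at 6.37, 10.2 and 8.0 FPKM in the CD49f-neg libraries, 3.96, 5.03 and 5.02 in those of CD49f-low and 2.31, 4.13 and 4.53 in those of CD49f-high. The CD49f-neg libraries lay above all others, and CD49f-low and CD49f-high overlapped. Its difference in CD49f-high against CD49f-neg was -1.0 ± 0.22 (adjusted p = 0.00901). The difference in CD49f-low, -0.68 (adjusted p = 0.0621), became a call with the replicate block (0.00806), under median-of-ratios scaling (0.0257) and without CD49f-neg replicate 1 or CD49f-high replicate 1 (0.0442 and 0.024).

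Sema6a was at 3.61, 3.13 and 3.54 FPKM in the CD49f-neg libraries, 4.80, 4.99 and 7.24 in those of CD49f-low and 2.14, 2.86 and 2.97 in those of CD49f-high. It was highest in CD49f-low and lowest in CD49f-high, with no overlap between gates. The fall from CD49f-low to CD49f-high was -0.86 ± 0.16 (adjusted p = 0.00536). The rise from CD49f-neg to CD49f-low, 0.58 ± 0.16 (adjusted p = 0.0385), was lost under median-of-ratios scaling (0.34, adjusted p = 0.254), quantile normalization (0.35, adjusted p = 0.247), and without any one of CD49f-neg replicates 1, 2 and 3 (0.0589, 0.104 and 0.0968), CD49f-low replicates 2 and 3 (0.0683 and 0.121) and CD49f-high replicate 2 (0.0524).

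Sema7a, the lipid-anchored semaphorin that binds Plxnc1 and β1 integrin, was called higher at both steps at a low level, 1.76 ± 0.143, 2.58 ± 0.174 and 3.79 ± 0.0602 FPKM. CD49f-high exceeded CD49f-neg by 0.80 (adjusted p = 0.000417). The step to CD49f-low (0.38, adjusted p = 0.0353) was 0.18 under median-of-ratios scaling (adjusted p = 0.343) and 0.15 under quantile normalization (adjusted p = 0.47), and it was lost without any one of the 6 libraries of those gates (adjusted p 0.0583 to 0.123) or CD49f-high replicate 2 (0.0512). The step to CD49f-high (0.42, adjusted p = 0.0191) was lost without CD49f-low replicate 1 or 3 (0.0667 and 0.0765) or CD49f-high replicate 3 (0.0637). Sema5a (6.21, 7.36 and 7.24 FPKM) and Sema6b (1.25, 1.18 and 1.89) were called in no contrast, though Sema6b was called higher in CD49f-high without CD49f-high replicate 2 (adjusted p = 0.0387 against CD49f-neg and 0.0385 against CD49f-low). Sema4f did not pass the filter and was at 0.407, 2.02 and 2.18 FPKM in CD49f-high against at most 0.166 elsewhere. Fitted without a filter, it was called in CD49f-high against CD49f-neg (1.08, adjusted p = 0.0494).

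The neuropilins, co-receptors shared with vascular endothelial growth factors, moved in opposite directions in CD49f-high. Nrp1 was measured at 15.7, 15.7 and 14.3 FPKM in the CD49f-neg libraries, 13.9, 12.3 and 13.7 in those of CD49f-low and 22.7, 25.9 and 28.1 in those of CD49f-high. It was highest in CD49f-high in every library, by 0.71 ± 0.11 over CD49f-neg (adjusted p = 0.00136) and 0.89 ± 0.11 over CD49f-low (adjusted p = 0.000547). Its row also covers the microRNA gene Mir1903. Nrp2 was at 10.2, 8.82 and 8.40 FPKM in the CD49f-neg libraries, 9.06, 7.76 and 8.11 in those of CD49f-low and 4.63, 4.55 and 4.44 in those of CD49f-high. It was lowest in CD49f-high in every library, by -0.87 ± 0.11 against CD49f-neg (adjusted p = 0.000347) and -0.75 ± 0.11 against CD49f-low (adjusted p = 0.00133), and overlapped between the other gates. For neither gene was CD49f-low against CD49f-neg called (-0.18 and -0.12), except under median-of-ratios scaling (adjusted p = 0.0319 for Nrp1 and 0.0453 for Nrp2).

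Plexins are the signalling receptors of the semaphorins, and of the 9, 5 were called higher and 2 lower in CD49f-high than CD49f-neg, against 13.9% and 8.27% of all rows. The 5 include Plxnb3, which passed the filter only through this gate. For Plxnb3, Plxnd1 and an Eph receptor described further on, the reference sequence just upstream of the start of the gene in the deposited table is printed here, because these genes show 3 of the orders seen among the receptors: Plxnb3 above 1 FPKM in CD49f-high alone, Plxnd1 rising from gate to gate, and Ephb6 peaking in CD49f-low. Each is 200 bases from RefSeq's promoters (GRCm38.p6), 5′ to 3′ on the strand of the gene, at chrX:73756890-73757089 (plus), chr6:115995006-115995205 (minus) and chr6:41605282-41605481 (plus). The set of promoters used held 1 promoter for each of these genes, and other transcripts may begin elsewhere. Capitals mark matches on either strand to an E-box (CANNTG), a GC box (GGGCGG), a SOX core (ACAAAG or ACAATG) or a CCAAT box.
Plxnb3: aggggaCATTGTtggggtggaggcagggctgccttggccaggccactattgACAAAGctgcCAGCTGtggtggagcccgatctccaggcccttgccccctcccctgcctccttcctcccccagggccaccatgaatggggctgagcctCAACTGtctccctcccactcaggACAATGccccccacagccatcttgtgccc
Plxnd1: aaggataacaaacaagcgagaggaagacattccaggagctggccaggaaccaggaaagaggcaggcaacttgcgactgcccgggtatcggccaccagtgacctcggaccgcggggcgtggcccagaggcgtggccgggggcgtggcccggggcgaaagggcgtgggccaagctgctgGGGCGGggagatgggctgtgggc
Ephb6: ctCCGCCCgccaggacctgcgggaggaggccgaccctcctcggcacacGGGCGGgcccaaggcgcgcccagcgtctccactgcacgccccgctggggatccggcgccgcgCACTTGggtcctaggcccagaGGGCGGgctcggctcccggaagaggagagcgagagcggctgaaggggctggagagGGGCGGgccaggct

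The Plxnb3 stretch held 3 SOX core matches and 2 E-boxes and no GC box. Ephb6 held 4 GC boxes and 1 E-box, and Plxnd1 held 1 GC box alone. None held a CCAAT box. Of 32851 RefSeq promoters of the same length, 20.7% held a SOX core match, 58.2% an E-box, 31.0% a GC box and 29.3% a CCAAT box, so each of these short motifs is common, and a match is a description of letters only.

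Plxnb3, known as a receptor of Sema5a (GRCm38 chromosome X, 73757090 to 73772514), was measured at 0.0107, 0.00589 and 0.00847 FPKM in the CD49f-neg libraries, 0.0510, 0.0714 and 0.0780 in those of CD49f-low and 1.28, 8.86 and 8.93 in those of CD49f-high. The gates did not overlap, and within CD49f-high replicate 1 lay far below the others. Over its 6493 exonic bases these levels stand for an estimated 0.998 to 1.75 fragments per library in CD49f-neg and 8.24 to 12.8 in CD49f-low, against 198 to 1513 in CD49f-high, so the level in CD49f-neg is at the limit of detection. CD49f-high exceeded CD49f-neg by 2.59 ± 0.47 and CD49f-low by 2.51 ± 0.47, given as a description because Plxnb3 passed the filter only through CD49f-high. With a pseudocount of 0.1 these differences were 5.48 and 4.86, and without CD49f-high replicate 1 they were 3.29 and 3.21.

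Plxnd1, the receptor of Sema3e and known from vessel patterning (chromosome 6, 115954811 to 115995005), stood at 2.57, 2.23 and 2.16 FPKM in the CD49f-neg libraries, 6.39, 7.01 and 7.18 in those of CD49f-low and 14.8, 11.8 and 14.8 in those of CD49f-high. Its gates formed 3 steps with no overlap. The step to CD49f-low was 1.24 ± 0.12 (adjusted p = 0.000135) and that to CD49f-high another 0.91 ± 0.12 (adjusted p = 0.000728). Plxnb1, the Sema4d receptor, was graded in the same way, at 1.35, 2.54 and 2.53 FPKM in the CD49f-neg libraries, 3.72, 4.41 and 5.15 in those of CD49f-low and 7.27, 8.54 and 8.77 in those of CD49f-high. Its gates did not overlap either, and CD49f-high exceeded CD49f-neg by 1.57 ± 0.18 (adjusted p = 0.000219). Its single steps were less firm. The one to CD49f-low (0.81, adjusted p = 0.0162) was lost under median-of-ratios scaling (0.0802) and without CD49f-low replicate 2 or 3 (0.0545 and 0.0689). The one to CD49f-high (0.77, adjusted p = 0.0169) was lost without CD49f-low replicate 1 or 2 (0.0649 and 0.0509) or CD49f-high replicate 2 or 3 (0.0517 and 0.0608). An exon of Gm7628 overlaps it on the other strand.

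Plxnc1, the Sema7a receptor (chromosome 10, 94790866 to 94944578), peaked in CD49f-low. It was measured at 2.20, 1.79 and 2.04 FPKM in the CD49f-neg libraries, 5.38, 5.37 and 5.46 in those of CD49f-low and 0.485, 0.724 and 0.788 in those of CD49f-high. CD49f-low was highest and CD49f-high lowest in every library, with a spread in CD49f-low of 0.0524 (SD). It rose by 1.09 ± 0.11 from CD49f-neg to CD49f-low (adjusted p = 0.000267) and was -1.95 ± 0.11 in CD49f-high against CD49f-low (adjusted p = 1.97e-05). CD49f-high was also below CD49f-neg, by -0.85 ± 0.11 (adjusted p = 0.000619; -1.48 with a pseudocount of 0.1). The melanocyte and dermal papilla lists were highest in the same gate, and their part in this was not tested.

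Plxna4, a receptor for class 3 and class 6 semaphorins on sensory and sympathetic axons, was highest in CD49f-neg. It stood at 8.83, 12.8 and 13.3 FPKM in the CD49f-neg libraries, 5.55, 3.57 and 5.17 in those of CD49f-low and 1.57, 2.90 and 3.14 in those of CD49f-high. The gates stepped down with no overlap, by -1.13 ± 0.23 in CD49f-low (adjusted p = 0.00996) and -1.85 ± 0.23 in CD49f-high (adjusted p = 0.000339) against CD49f-neg. From CD49f-low to CD49f-high the difference was -0.72 (adjusted p = 0.0601), a call with the replicate block (0.0385) and without CD49f-neg replicate 1 or CD49f-low replicate 2 (0.0451 and 0.0482). Its row overlaps exons of the antisense gene Plxna4os3, and since the strand of counting is not given, reads from both genes cannot be told apart.

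Plxnb2, the Sema4c receptor, had the highest level of the plexins, at 20.6, 27.3 and 24.0 FPKM in the CD49f-neg libraries, 24.2, 27.6 and 28.7 in those of CD49f-low and 32.1, 32.9 and 33.5 in those of CD49f-high. The CD49f-high libraries lay above all others by a small margin, 0.45 ± 0.12 over CD49f-neg (adjusted p = 0.0264). That call was lost under median-of-ratios scaling (0.0678) and without CD49f-neg replicate 1 or 3 (0.0709 and 0.0717) or CD49f-high replicate 2 or 3 (0.0647 and 0.0675), while median-of-ratios scaling made its difference from CD49f-low a call (0.0299). Its row also covers Mir7118. Plxna2 rose in CD49f-high at a lower level, 1.43 ± 0.0746, 1.92 ± 0.170 and 3.57 ± 0.736 FPKM, by 0.90 over CD49f-neg (adjusted p = 0.0013). Its difference from CD49f-low, 0.63 (adjusted p = 0.012), was lost without CD49f-low replicate 3 (0.0547) or CD49f-high replicate 3 (0.0502). Plxna1 (15.3 ± 3.79, 15.7 ± 1.30 and 14.0 ± 2.55 FPKM) and Plxna3 (6.11 ± 1.58, 4.46 ± 0.840 and 4.11 ± 1.62) were called in no contrast. With the replicate block Plxna3 was called lower in CD49f-high than CD49f-neg (adjusted p = 0.0166).

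**Figure D3:**
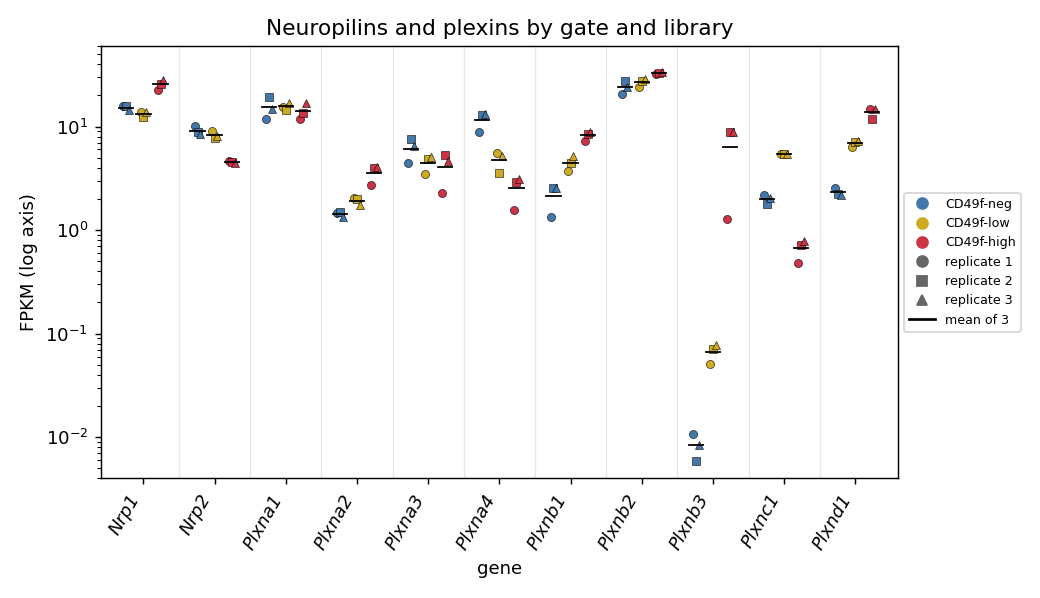
FPKM of the neuropilins and plexins in the 9 libraries on a log axis, colours for gates, symbols for replicates and lines for gate means. Plxnd1 and Plxnb1 rise from gate to gate, Plxna4 falls, Plxnc1 peaks in CD49f-low at 5.37 to 5.46 FPKM, and Plxnb3 exceeds 1 FPKM only in the CD49f-high libraries.

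Of 7 ephrins tested, 3 were called lower in CD49f-high than CD49f-neg (Efnb2, Efnb3 and Efna2; all rows 8.27%) and none higher (all rows 13.9%), and none was called in CD49f-low against CD49f-neg. In some alternatives Efnb1 was called higher, as given with its values. Efnb2, an ephrin known from arteries (chromosome 8, 8617434 to 8661242), was the most abundant ephrin, at 30.0, 24.5 and 26.0 FPKM in the CD49f-neg libraries, 59.0, 27.8 and 37.1 in those of CD49f-low and 11.7, 11.2 and 7.66 in those of CD49f-high. CD49f-high lay below every other library, and CD49f-neg and CD49f-low overlapped. It was -1.33 ± 0.25 in CD49f-high against CD49f-neg (adjusted p = 0.00431) and -1.87 ± 0.25 against CD49f-low (adjusted p = 0.000933). Dermal papilla markers, 12 of 12 called lower in CD49f-high than CD49f-low, moved with it, and their part was not tested.

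Efnb3, a transmembrane ephrin of neural midline tissue, was at 5.92, 9.03 and 8.92 FPKM in the CD49f-neg libraries, 4.97, 5.79 and 6.54 in those of CD49f-low and 1.72, 1.85 and 1.21 in those of CD49f-high. CD49f-high was lowest with no overlap, by -1.77 ± 0.17 against CD49f-neg (adjusted p = 9.34e-05) and -1.38 ± 0.17 against CD49f-low (adjusted p = 0.000634). In CD49f-low against CD49f-neg, -0.39 (adjusted p = 0.153), it was called under median-of-ratios scaling (0.0453) and without CD49f-neg replicate 1 (0.0417). Efnb1, the X-linked member, did not follow: it stood at 11 ± 1.91, 18.7 ± 3.61 and 17.7 ± 4.90 FPKM. It was called in no contrast, but with the replicate block it was called higher than CD49f-neg in both CD49f-low (adjusted p = 0.00224) and CD49f-high (0.00248), as it was without CD49f-high replicate 1 (0.0239 and 0.0149).

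Among the A class, Efna5 was measured at 5.93, 4.12 and 6.18 FPKM in the CD49f-neg libraries, 12.5, 4.87 and 8.75 in those of CD49f-low and 2.24, 3.70 and 3.71 in those of CD49f-high. CD49f-low varied most and overlapped with CD49f-neg, and CD49f-high lay below all others. Its difference from CD49f-low to CD49f-high, -1.14 ± 0.29 (adjusted p = 0.0245), was lost under median-of-ratios scaling (0.0567) and without CD49f-low replicate 1 or 3 (0.0738 and 0.082) or CD49f-high replicate 1 (0.07). It was -0.69 (adjusted p = 0.141) without replicate 1 of all gates. Efna2 stood at 5.29, 7.09 and 7.19 FPKM in the CD49f-neg libraries, 5.37, 5.62 and 6.36 in those of CD49f-low and 2.56, 4.44 and 4.67 in those of CD49f-high. CD49f-high was lowest with no overlap, by -0.64 ± 0.19 against CD49f-neg (adjusted p = 0.0362). That call was lost without any one of CD49f-neg replicates 2 and 3 (0.112 and 0.123), CD49f-low replicates 1, 2 and 3 (0.0503, 0.0556 and 0.0523) and CD49f-high replicate 1 (0.0749), and with the replicate block the difference from CD49f-low was called as well (0.0206).

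Efna1 (2.17 ± 0.629, 3.04 ± 0.373 and 2.19 ± 0.767 FPKM) was called in no contrast. Efna4 (3.47 ± 1.21, 3.15 ± 0.585 and 1.78 ± 0.254), whose row overlaps 4731419I09Rik on the other strand, was not called either, but with the replicate block it was lower in CD49f-high than CD49f-neg (adjusted p = 0.0103) and CD49f-low (0.0217), as it was without CD49f-neg replicate 1 (0.00348 and 0.0204). Efna3 did not pass the filter and stood at 0.545, 0.753 and 0.245 FPKM. Fitted without a filter, its difference from CD49f-low to CD49f-high was -0.50 (adjusted p = 0.0388).

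EphA receptors bind mainly the lipid-anchored ephrins, and 4 of their 9 symbols were tested. Against CD49f-neg, 3 were called higher in CD49f-low (Epha2, Epha4 and Epha7; all rows 12.8%) and 3 in CD49f-high (Epha2, Epha3 and Epha4; all rows 13.9%), and none lower. Both contrasts share the CD49f-neg libraries. Epha2, a receptor of epithelia and vessels (chromosome 4, 141301240 to 141329384), was at 1.52, 1.11 and 0.964 FPKM in the CD49f-neg libraries, 2.60, 3.19 and 2.62 in those of CD49f-low and 5.08, 7.45 and 6.42 in those of CD49f-high. Its gates rose in 3 steps with no overlap, by 0.80 ± 0.15 (adjusted p = 0.00836) and 0.93 ± 0.15 (adjusted p = 0.00288), 1.73 ± 0.15 in all (adjusted p = 5.05e-05). The keratinocyte, pericyte and smooth muscle, Schwann cell, skeletal muscle and both endothelial lists had their highest sums in CD49f-high too, and their part was not tested.

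Epha3 stood at 3.39, 4.04 and 2.53 FPKM in the CD49f-neg libraries, 3.83, 6.64 and 5.49 in those of CD49f-low and 8.04, 11.6 and 9.99 in those of CD49f-high. CD49f-high was highest with no overlap, 1.33 ± 0.20 above CD49f-neg (adjusted p = 0.00125). Its difference from CD49f-low, 0.79 (adjusted p = 0.0256), was lost without CD49f-low replicate 1 or 3 (0.0825 and 0.0658) or CD49f-high replicate 2 or 3 (0.0839 and 0.074), and with the replicate block it was also called from CD49f-neg to CD49f-low (0.0295).

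Epha4, a receptor that binds ephrins of both classes, was at 2.29, 2.03 and 1.65 FPKM in the CD49f-neg libraries, 4.0, 5.69 and 6.75 in those of CD49f-low and 7.47, 5.36 and 5.16 in those of CD49f-high. Both positive gates lay above CD49f-neg and overlapped with each other. The rises were 1.10 ± 0.19 (adjusted p = 0.00445) and 1.22 ± 0.19 (adjusted p = 0.00136), and the difference between the positive gates was 0.12 ± 0.19 (adjusted p = 0.698). Epha7 peaked in CD49f-low at a lower level, 1.31 ± 0.0647, 3.72 ± 0.456 and 1.71 ± 0.501 FPKM, 1.03 above CD49f-neg (adjusted p = 0.00214) and with -0.81 from there to CD49f-high (adjusted p = 0.00594).

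The other EphA rows did not pass the filter. Epha1 ran from 1.13 ± 0.313 FPKM in CD49f-neg to 0.560 ± 0.239 and 0.517 ± 0.117 in the positive gates, and its exons overlap those of Zyx on the other strand. The first Epha5 row was at 0.106, 1.10 and 1.35 FPKM in CD49f-high and at most 0.0764 elsewhere, and the second at most 0.173. Epha6 reached 0.0685 FPKM, Epha8 0.135 and Epha10, a kinase-dead member, 0.0454, an estimated 7.75 fragments.

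EphB receptors, which bind mainly the transmembrane ephrins, took several orders. Ephb6, a member without kinase activity (chromosome 6, 41605482 to 41620509), marked CD49f-low. It was measured at 2.50, 3.74 and 3.64 FPKM in the CD49f-neg libraries, 13.8, 19.8 and 20.7 in those of CD49f-low and 3.49, 5.04 and 3.23 in those of CD49f-high. All CD49f-low libraries lay far above the others, and CD49f-neg and CD49f-high overlapped. Its rise to CD49f-low was 2.15 ± 0.20 (adjusted p = 0.000126), and its difference from there to CD49f-high was -1.95 ± 0.20 (adjusted p = 0.00021). Against CD49f-neg, CD49f-high differed by 0.19 ± 0.20 (adjusted p = 0.559).

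Ephb1 had the same peak at a low level, 0.0458 ± 0.0104, 1.72 ± 0.383 and 0.460 ± 0.0877 FPKM, and in CD49f-neg it rested on an estimated 6.75 to 10.2 fragments per library. Its differences were 1.37 from CD49f-neg to CD49f-low and -0.89 from CD49f-low to CD49f-high, or 3.62 and -1.69 with a pseudocount of 0.1, a description again because it passed the filter only through CD49f-low. The smaller one between CD49f-high and CD49f-neg, 0.48 (adjusted p = 0.0298; 1.93 with a pseudocount of 0.1), was lost without any one of the 6 libraries of these gates (adjusted p 0.0508 to 0.0902). Its exons overlap those of Gm26846 on the other strand. Melanocyte and dermal papilla markers were highest in CD49f-low, as were Ephb6, Ephb1 and Epha7, and their part was not tested.

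Ephb3 was highest in CD49f-neg, at 11.8, 18.0 and 14.4 FPKM, against 7.45, 8.15 and 8.69 in CD49f-low and 4.23, 7.10 and 6.26 in CD49f-high. The gates stepped down with no overlap, and CD49f-high differed from CD49f-neg by -1.20 ± 0.19 (adjusted p = 0.00147). The difference in CD49f-low, -0.77 (adjusted p = 0.0245), was lost without any one of CD49f-neg replicates 2 and 3 (0.0752 and 0.0735) and CD49f-low replicates 1, 2 and 3 (0.0727, 0.0725 and 0.059), and with the replicate block the step to CD49f-high was called (0.0345).

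Ephb4, the venous receptor of Efnb2, stood at 12.2, 14.2 and 14.3 FPKM in the CD49f-neg libraries, 11.8, 12.3 and 14.7 in those of CD49f-low and 7.98, 10.3 and 10.7 in those of CD49f-high. CD49f-high was lowest with no overlap, by -0.46 ± 0.14 against CD49f-neg (adjusted p = 0.0366). That call was lost without CD49f-neg replicate 2 or 3 (0.106 and 0.119), CD49f-low replicate 2 (0.0557) or CD49f-high replicate 1 or 2 (0.0965 and 0.0544), and with the replicate block the difference from CD49f-low was called (0.0171). Exons of Zan overlap it on the other strand. Ephb2, at 9.18 ± 0.399, 6.89 ± 0.988 and 7.34 ± 2.52 FPKM, was called in no contrast.

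**Figure D4:**
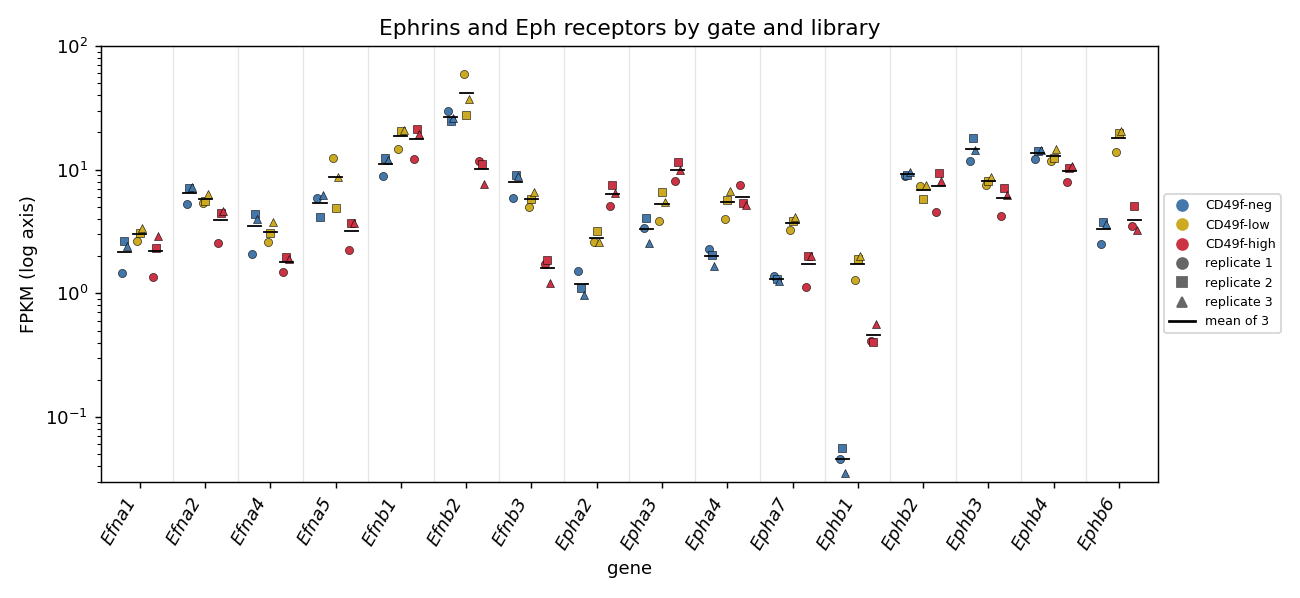
FPKM of the tested ephrins and Eph receptors in the 9 libraries on a log axis, colours for gates, symbols for replicates and lines for gate means. Efnb2 and Efnb3 are lowest in CD49f-high, Epha2 and Epha3 highest there, and Ephb6 peaks in CD49f-low at 13.8 to 20.7 FPKM.

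Set beside each other, known partners did not always share a gate. Sema7a was highest in CD49f-high (3.79 FPKM) where its receptor Plxnc1 was lowest (0.666), and Plxnc1 was highest in CD49f-low (5.40). Sema3a and its co-receptor Nrp1 were also highest in different gates, CD49f-low (5.41 FPKM) and CD49f-high (25.6). Sema3f and Nrp2 were both lower in CD49f-high (4.05 and 4.54 FPKM) than CD49f-neg (11.5 and 9.16), though Nrp2 was not called between CD49f-neg and CD49f-low, nor Sema3f between CD49f-low and CD49f-high. Sema4c and Plxnb2 were both highest in CD49f-high (27.6 and 32.8 FPKM), and so were Sema4d and Plxnb1 (1.48 and 8.19) and the Plxnd1 ligands Sema3e, Sema3c and Sema4a with Plxnd1 itself (1.61, 12.4, 1.50 and 13.8), although Sema3c was called in no contrast, and neither Sema4d nor Plxnb2 was called between CD49f-low and CD49f-high (0.07, adjusted p = 0.801, and 0.29, adjusted p = 0.147). Sema5a was called in no contrast (6.21 to 7.36 FPKM over the gate means) while its receptor Plxnb3 rose to 6.36 in CD49f-high. Efnb2 was highest in CD49f-low (41.3 FPKM) and lowest in CD49f-high (10.2), and its receptor Ephb4 was lowest in CD49f-high too (9.65). However, Efnb2 was not called between CD49f-neg and CD49f-low (0.54, adjusted p = 0.167), nor Ephb4 between CD49f-low and CD49f-high (-0.40, adjusted p = 0.0804). These are levels of messenger RNA in sorted pools, and the cells that carried each partner were not resolved.

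**Figure D5:**
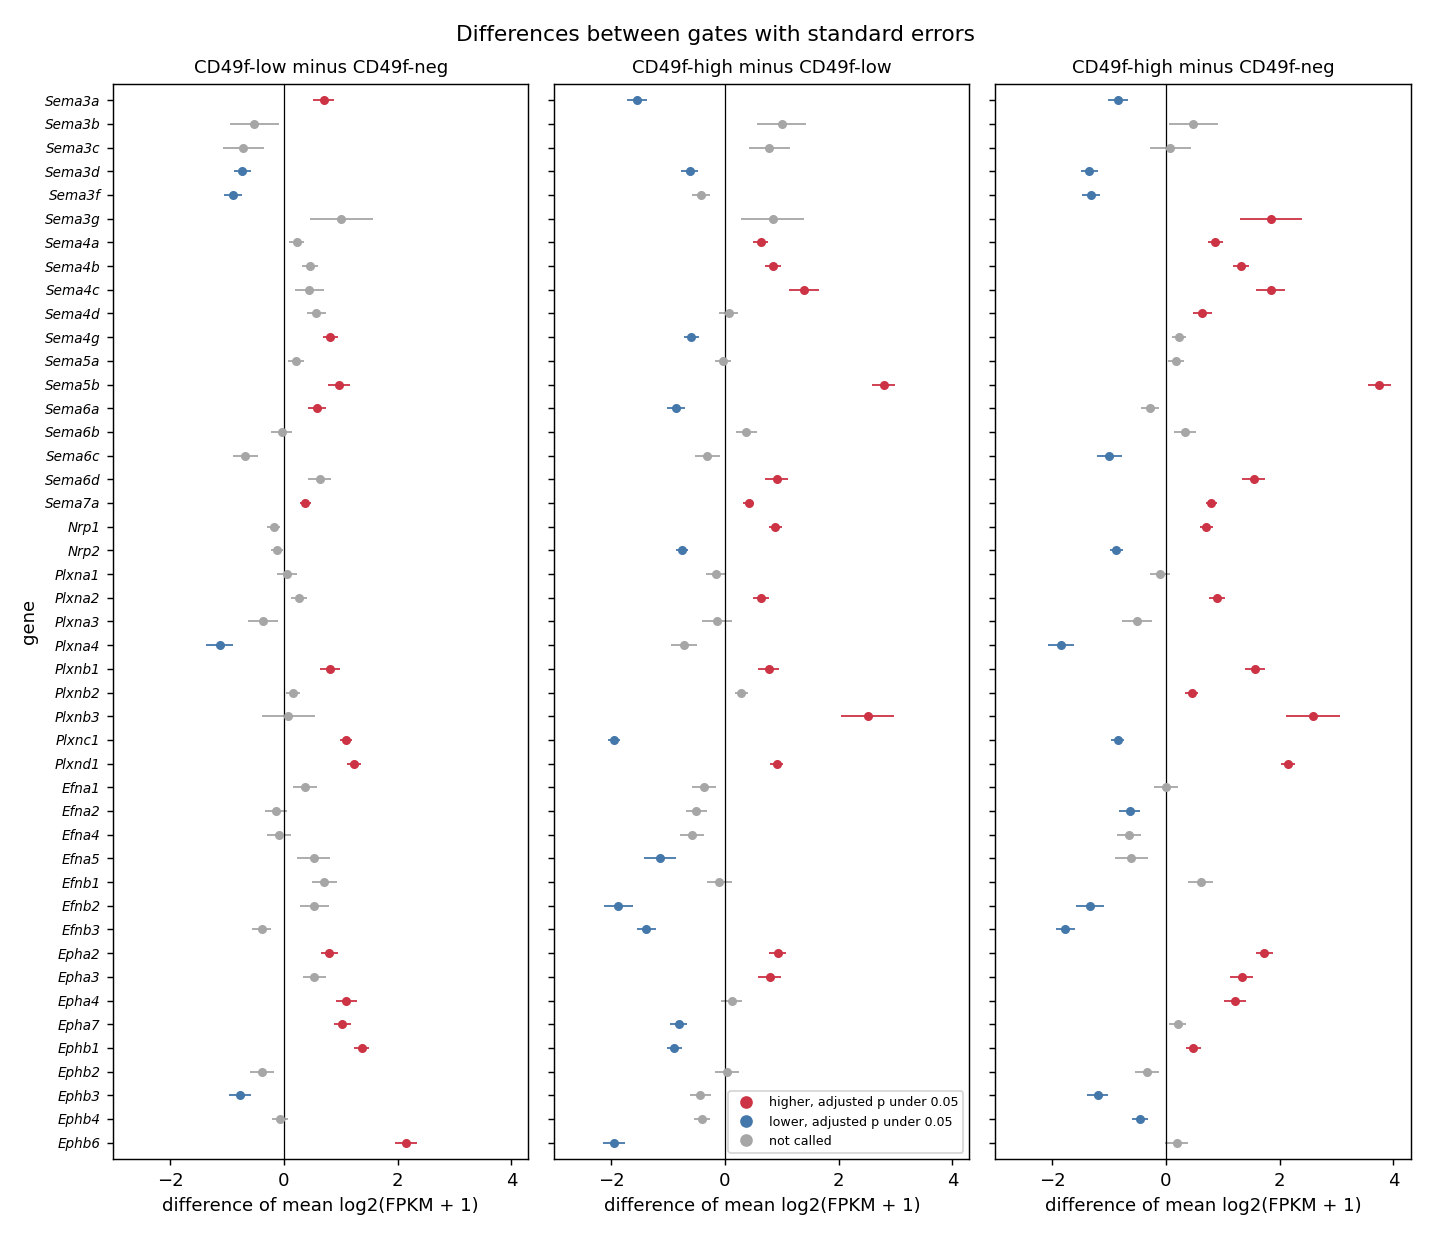
Difference of mean log2(FPKM + 1) with its standard error (horizontal axis) for each tested member, in 3 panels for the 3 contrasts, with calls coloured. Sema5b and Plxnb3 lie farthest to the right in CD49f-high minus CD49f-low (2.79 and 2.51), and Ephb6 has the largest rise in CD49f-low minus CD49f-neg (2.15) and a difference of -1.95 in CD49f-high minus CD49f-low.

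Some members lie next to each other in the genome without sharing an order of gates. Sema3d, Sema3a, Sema3e and Sema3c follow each other on chromosome 5 between 12383385 and 17730268 (GRCm38), and were highest in CD49f-neg, CD49f-low, CD49f-high and CD49f-high, the last with no call. Sema3b and Sema3f lie on chromosome 9 between 107597674 and 107710475, the former highest in CD49f-high with no call and the latter in CD49f-neg. Efna1, Efna3 and Efna4 lie on chromosome 3 between 89271733 and 89338028, and neither Efna1 nor Efna4 was called, and Efna3 did not pass the filter.

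CD49f-high replicate 1 was low for many members. It lay below both other CD49f-high libraries for 27 of the 45 tested members and above both for 9. For 6 members it was at least 2 times below the mean of the other replicates (Sema3b, Sema3c, Sema3g, Sema4d, Plxna3 and Plxnb3, from 2.10 times for Sema4d to 6.93 times for Plxnb3), and for none was it 2 times above. The same was not counted over all rows, so these counts do not show a trait particular to the members. The Schwann cell list was 58.2 FPKM in this library against 247 and 303 in the others. The part of that list in the low values of these members was not tested. Without this library the calls were 21, 29 and 26 of 45 in CD49f-low against CD49f-neg, CD49f-high against CD49f-neg and CD49f-high against CD49f-low. Of all rows, 18.3%, 19.5% and 16.0% were then called.

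Other guidance systems and the downstream genes of these receptors were counted in the same fit. Slit and Robo genes, another repellent system, had 7 of 10 tested; 4 were called lower and 1 higher in CD49f-high than CD49f-neg (71.4% in all, against 22.1% of all rows), and 4 lower and none higher than CD49f-low (57.1%, against 16.4%). The receptor gene Robo1 stood at 8.77, 9.56 and 2.30 FPKM in CD49f-neg, CD49f-low and CD49f-high (-1.67 in CD49f-high against CD49f-low, adjusted p = 7.14e-05), and Robo2, whose row also covers Mir691, at 9.13, 7.86 and 0.977 (-2.15, adjusted p = 7.04e-05). Against CD49f-neg, CD49f-low had 2 lower (28.6%, against 15.4% of all rows), Srgap1 and Srgap3, both GTPase-activating partners of Robo.

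Netrin pathway genes had 10 of 15 tested, with 4 higher and 1 lower in CD49f-low than CD49f-neg, 3 higher and 4 lower in CD49f-high than CD49f-neg, and 1 higher and 6 lower in CD49f-high than CD49f-low. This is 50.0%, 70.0% and 70.0% of those tested, against 15.4%, 22.1% and 16.4% of all rows. The ligand gene Ntn1 fell from 95.3 FPKM in CD49f-neg to 50.6 in CD49f-low and 22.0 in CD49f-high (-2.10 in CD49f-high against CD49f-neg, adjusted p = 0.000147). Its repulsive receptor gene Unc5b rose from 6.01 to 17.4 and 15.3 FPKM (1.39 in CD49f-low, adjusted p = 0.000248). Draxin, a secreted netrin antagonist, peaked in CD49f-low at 6.84 FPKM against 0.0562 and 0.621 (2.84 over CD49f-neg). This is a description, since Draxin would not have passed the filter without the CD49f-low libraries, and it is among the netrin pathway genes counted.

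Semaphorin effectors and partners had 20 of 21 tested, with 6 higher and 1 lower in CD49f-low than CD49f-neg, 8 higher and 4 lower in CD49f-high than CD49f-neg, and 3 higher and 4 lower in CD49f-high than CD49f-low (7, 12 and 7 of 20 in all). Of all rows, 15.4%, 22.1% and 16.4% were called in these contrasts. Nrcam, a neuropilin-associated adhesion molecule, peaked in CD49f-low at 3.15 FPKM against 0.472 and 0.871 (1.49 over CD49f-neg). This is given as a description, because its mean reached 1 FPKM only in CD49f-low, which favours a difference. Mical1, an oxidase of actin that acts below A-type plexins, rose from 7.04 to 10.7 and 13.1 FPKM (0.82 in CD49f-high against CD49f-neg, adjusted p = 0.0011), while the kinase gene Fyn was lower in CD49f-high (15.1, 9.78 and 8.34 FPKM, -0.78, adjusted p = 0.00338). Ephrin effectors had 16 of 20 tested, with 4 higher and none lower in CD49f-low than CD49f-neg, 5 higher and 3 lower in CD49f-high than CD49f-neg, and 2 higher and 1 lower in CD49f-high than CD49f-low. These are 25.0%, 50.0% and 18.8% of those tested, against 15.4%, 22.1% and 16.4% of all rows. The last is near its share of all rows. Nck2, an adaptor of Eph and ephrin-B signalling, rose from 4.19 to 6.74 and 13.1 FPKM (1.44 in CD49f-high against CD49f-neg, adjusted p = 3.14e-05), and Vav3, an exchange factor downstream of Eph receptors, was at 2.67, 2.21 and 0.951 (-0.91, adjusted p = 0.000276).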

How the data were processed

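The authors deposited 1 table of FPKM values with 1 column for each of 9 libraries. Lysis in Trizol straight after the sort and NEBNext Ultra libraries from total RNA are given per the labels' protocols. Per the submitters' processing notes, FastQC, TopHat2, StringTie and the build GRCm38 were used. Versions, filters and strand are not given in the sources used here. Members were taken by symbol. Coordinates of 46 of 54 rows equal those of GENCODE M21, 3 rows hold another symbol, 16 are joined with unnamed genes, and exons of 11 overlap genes on the other strand. Titles gave each library its gate. Depth was estimated from the spacing of low FPKM in single-exon genes, and reading it as fragments assumes that 4 of the smallest steps make 1 fragment.

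FPKM were used as log2(FPKM + 1) in limma 3.58.1 (R 4.3.3), a model of gate means with trended empirical Bayes and 6 residual degrees of freedom, on the 20523 rows with at least 1 FPKM in at least 3 libraries. The Benjamini-Hochberg adjustment ran over all of these rows. Values in every library are given for called members with a mean of at least 5 FPKM in their highest gate, and gate means for the others. For the other pathways, up to 4 called genes per list and contrast with the smallest adjusted p could be named, of which the text names some. Members, lists and tests were chosen with earlier results of these data known. The replicate number was not in the model. Deviations from gate means correlated at 0.252 to 0.52 between libraries of the same number (9 pairs) and at -0.453 to 0.118 between others (18 pairs), so the numbers pair the libraries by their values, and no label says what a number stands for. The fit was tested on simulated data. Promoter sequences were matched by symbol for 47 of 53 symbols. Tables were handled in Python 3.11.15 with pandas 2.3.3. The result of 1 marker gene is not reported here.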

Additional observations from a re-analysis of the deposited data

How the results depend on the processing

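Of the member calls, 11 of 17 in CD49f-low against CD49f-neg, 24 of 30 in CD49f-high against CD49f-neg and 17 of 25 in CD49f-high against CD49f-low held in every alternative that could be run, and no call changed direction. The settings tried were another pseudocount (0.1), another scaling (median-of-ratios or quantile normalization), no filter or one of 5 FPKM, no mean-variance trend, the replicate block, each library left out, replicate 1 of all gates left out (added after seeing the data) and fits on only the 6 libraries compared. Testing all 84809 rows without a filter ended the calls of Sema3a, Sema6a, Sema7a and Ephb3 in CD49f-low against CD49f-neg, of Sema3g, Sema4d, Plxnb2, Efna2 and Ephb4 in CD49f-high against CD49f-neg and of Efna5 and Epha3 in CD49f-high against CD49f-low. Fits on 6 libraries ended those of Sema3a and Sema7a, and of Sema3g, Sema4d, Plxnb2, Efna2 and Ephb4, in the first 2 of these contrasts. Quantile normalization ended, beside those named with the results, the calls of Sema3a and Plxnb1, of Sema3g, Sema4d, Plxnb2 and Ephb1, and of Sema4g in the 3 contrasts, and leaving out replicate 1 of all gates ended those of Sema3a and Sema7a, of Plxnb2 and Ephb4, and of Sema3d, Sema4c, Sema4g, Sema7a, Efna5 and Epha3. The cause was not tested. With each library left out in turn, the calls ranged from 12 to 21, 24 to 29 and 19 to 27 in these contrasts, and from 28 to 34 for the F test. The share of all rows called then ranged from 7.86% to 18.3%, 15.7% to 22.7% and 10.7% to 17.5%, and from 20.7% to 28.9% for the F test. The stricter filter, which tested 31 members, gave 10 calls in CD49f-low against CD49f-neg and 15 in CD49f-high against CD49f-low (18.5% and 18.0% of all rows). With the replicate block the F test called 38 members and 43.8% of all rows, and the block ended no call of the fit without it. Median-of-ratios scaling put the semaphorin sums at 79.7 FPKM in CD49f-neg and 67.3 in CD49f-low, and the ephrin sum in CD49f-neg at 69.9. It put the neuropilin and plexin sums at 97.4 in CD49f-neg and 82.3 in CD49f-low. For semaphorins and for neuropilins and plexins, CD49f-neg then lay above CD49f-low, the reverse of the unscaled order. Without the rows of more than 1 symbol (Nrp1 and Plxnb2), the neuropilin and plexin sums were 50.1, 51.9 and 57.8 FPKM in CD49f-neg, CD49f-low and CD49f-high. Members below 1 FPKM rest on few fragments, and their fold changes depend on the pseudocount.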
